A study of Drosophila melanogaster with 5 samples.

Results

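The testis meiotic arrest complex (tMAC) is a transcription regulator of Drosophila primary spermatocytes, the germ cells that grow and build up transcripts before the meiotic divisions. It resembles the MuvB and dREAM complexes of other cells, and several of its subunits are testis paralogs of MuvB subunits. It is needed to switch on genes for the meiotic divisions and for the shaping of spermatids, and spermatocytes of most tMAC mutants stop before meiosis, hence the name.

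The genes described here are always early (aly), cookie monster (comr), matotopetli (topi), tombola (tomb), achintya (achi), vismay (vis) and wake-up-call (wuc). They were taken by symbol from the deposited table of 12847 rows, and all 7 were found. The study sequenced RNA of testis ribosomes in 5 libraries. Of these, 3 came from ribosomes pulled down by βNACtes antibodies (βNACtes IP), and 2 from total ribosomes of the extract. βNACtes is the germline form of NAC-β, a chaperone subunit that sits on ribosomes. All libraries were from testes of adult males of the Batumi strain kept at 25 °C, with 1000 frozen testes per extract, and neither a mutation nor a drug distinguished the groups. The labels mention the age of the males without a unit.

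The deposited table holds 1 value per gene and group, read here as the authors' mean in FPKM (fragments per kilobase, scaled to library size). Single libraries were not analysed, so no value below has an error, no difference could be set against the spread between replicates, and no test was made. The depth of the libraries is unknown. To compare the fractions, log2(FPKM + 0.1) of total ribosomes was subtracted from that of the βNACtes IP, which understates the change of low genes. The median of 9793 genes with a mean of at least 1 FPKM was then subtracted, and this value is called the relative log2 ratio. The median itself was 0.73, so a gene with equal FPKM in both fractions has a negative relative log2 ratio. A gene was called higher or lower in the βNACtes IP at a relative log2 ratio of 1 or more, or of −1 or less. The libraries come from whole tissue, so fewer cells of a type and less RNA per cell cannot be told apart in any level below.

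In the BDGP6 annotation the genes are dispersed, apart from achi and vis. The gene aly (FBgn0004372) lies on chromosome arm 3L from 3024129 to 3026521 on the minus strand, topi (FBgn0037751) on 3R from 9775121 to 9777943 on the plus strand, and tomb (FBgn0031715) on 2L from 5535861 to 5536758 on the minus strand. The other genes are on 2R. There, comr (FBgn0034667) extends from 21864870 to 21866859 on the minus strand without an intron, and wuc (FBgn0033770) from 12700081 to 12700851 on the plus strand. The tandem pair vis (FBgn0033748, from 12507896 to 12510615) and achi (FBgn0033749, from 12511534 to 12515062) is on the minus strand, separated by 918 bp. Exonic length ranged from 715 bp for wuc and 836 bp for tomb to 2652 bp for topi. The encoded proteins also differ in size, with 136 residues for wuc, 243 for tomb, 568 for aly, 600 for comr and 814 for topi.

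The main observation was that aly stood apart from the other members of its complex. The protein Aly is the testis paralog of Mip130 and related to LIN-9 of Caenorhabditis elegans. Its transcript had 17.3 FPKM in the βNACtes IP, against 84.0 FPKM in total ribosomes, where it was the most abundant member. The IP value was thus 0.206 times that of total ribosomes, and the relative log2 ratio was −3.0. The transcript was lower in the βNACtes IP under each scaling, pseudocount and filter tried, with values from −3.13 to −1.44. No gene of the annotation overlaps aly.

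The gene wuc encodes a small paralog of Lin-52 found as a partner of Aly. It had 41.5 FPKM in the βNACtes IP, against 50.1 FPKM in total ribosomes. Its relative log2 ratio of −1.0 was at the threshold, so its call turned on the settings. Scaled to TPM, for which each column was divided by its own total, wuc had 51.7 TPM in the βNACtes IP and 34.9 TPM in total ribosomes, and its log2 ratio was 0.56. On the same scale aly had 21.5 TPM in the βNACtes IP and 58.5 TPM in total ribosomes, and its log2 ratio was −1.44. Without centring, the direction for wuc therefore depended on the scaling, as its log2 ratio was −0.27 with the values as deposited. That for aly did not. Neither TPM ratio is centred, and the median log2 ratio of all genes tested was 1.55 in TPM. Against that median wuc was lower in TPM too.

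The DNA-binding type subunits had more FPKM in the βNACtes IP than in total ribosomes, but by less than the median of all genes. Topi is a zinc finger protein. Its transcript had 36.4 FPKM in the βNACtes IP, against 29.5 FPKM in total ribosomes (relative log2 ratio −0.43). Tomb has a CXC domain like its paralog Mip120, and its transcript had 28.5 FPKM in the βNACtes IP, against 17.2 FPKM in total ribosomes. With a relative log2 ratio of −0.00, tomb was at the median of all genes. Its exons overlap those of Cap-D3 on the opposite strand by 98 bp, which is 11.7% of its exonic length. Whether strand was used in counting is not given in the sources used here. As Cap-D3 had 7.0 FPKM in the βNACtes IP and 0.82 FPKM in total ribosomes, reads of the shared part may belong to either gene.

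Comr, a nuclear protein that works together with Aly, had a transcript of 7.15 FPKM in the βNACtes IP, against 5.01 FPKM in total ribosomes (relative log2 ratio −0.23). Achi and Vis are homeodomain proteins of the TGIF type encoded by a tandem pair of genes, and only the loss of both arrests meiosis. The transcript of achi had 10.4 FPKM in the βNACtes IP, against 6.87 FPKM in total ribosomes (relative log2 ratio −0.14). For vis it had 4.83 FPKM in the βNACtes IP, against 4.13 FPKM in total ribosomes (−0.51). The pair is very similar in sequence, and how the authors divided shared reads is not given in the sources used here, so the single values are uncertain. Their sum was 15.2 FPKM in the βNACtes IP and 11.0 FPKM in total ribosomes, with a relative log2 ratio of −0.26. Apart and summed, both were within 1 log2 unit of the median of all genes.

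**Figure D1:**
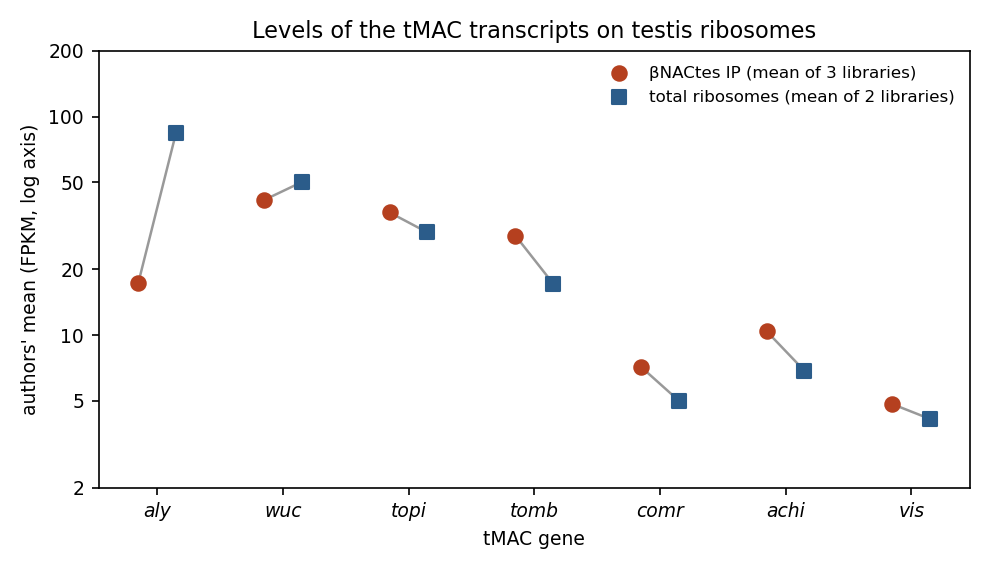
Level of each tMAC transcript in βNACtes IP (circles) and in total ribosomes (squares), in FPKM on a log axis. The values were read as the authors' means of 3 and 2 libraries, and have no error because the table gives 1 value per group. The line of aly is the steepest (17.3 FPKM in the βNACtes IP against 84.0 FPKM in total ribosomes), and wuc is the other gene with fewer FPKM in the βNACtes IP.

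Of the 7 genes, 5 had more FPKM in the βNACtes IP and 2 had fewer, whereas relative to the median of all genes each was below 0, with tomb at the median. In TPM, 6 were higher in the βNACtes IP than in total ribosomes. The median relative log2 ratio of the 7 genes was −0.43, and −0.33 without aly. By the threshold 2 genes, aly and wuc, were called lower and 0 higher, while 29.2% of all genes tested were called lower and 26.4% higher. A count of 2 of 7 is near this background. With the values as deposited, 43.6% of all genes were called higher and 18.3% lower, with upper-quartile scaling 32.5% higher and 25.0% lower, and in TPM 62.1% higher and 8.75% lower. Higher genes made up 47.5% of all calls with centring, 70.5% as deposited and 87.6% in TPM, where the median log2 ratio of all genes was 1.55. Among the tMAC genes aly alone was called lower as deposited and with upper-quartile scaling, whereas in TPM 5 were called higher and aly lower.

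Ratios between members within a fraction do not depend on how the columns are scaled. Set against topi, aly had 0.475 times its FPKM in the βNACtes IP and 2.85 times in total ribosomes. Against tomb it had 0.606 times the FPKM in the βNACtes IP and 4.88 times in total ribosomes, and against comr 2.42 times and 16.8 times. Pairs without aly shifted less. The largest shift without aly was that of wuc against tomb, with 1.45 times the FPKM in the βNACtes IP and 2.91 times in total ribosomes, whereas the smallest with aly was against wuc, with 0.417 times in the βNACtes IP and 1.68 times in total ribosomes. The transcript of wuc had 1.14 times the FPKM of topi in the βNACtes IP and 1.70 times in total ribosomes, while topi had 5.09 times the FPKM of comr in the βNACtes IP and 5.89 times in total ribosomes. The transcript of aly thus made up 11.8% of the summed FPKM of the 7 genes in the βNACtes IP, against 42.7% in total ribosomes. The sum was 146.1 FPKM in the βNACtes IP and 196.8 FPKM in total ribosomes, and without aly 128.8 FPKM in the βNACtes IP and 112.8 FPKM in total ribosomes.

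**Figure D2:**
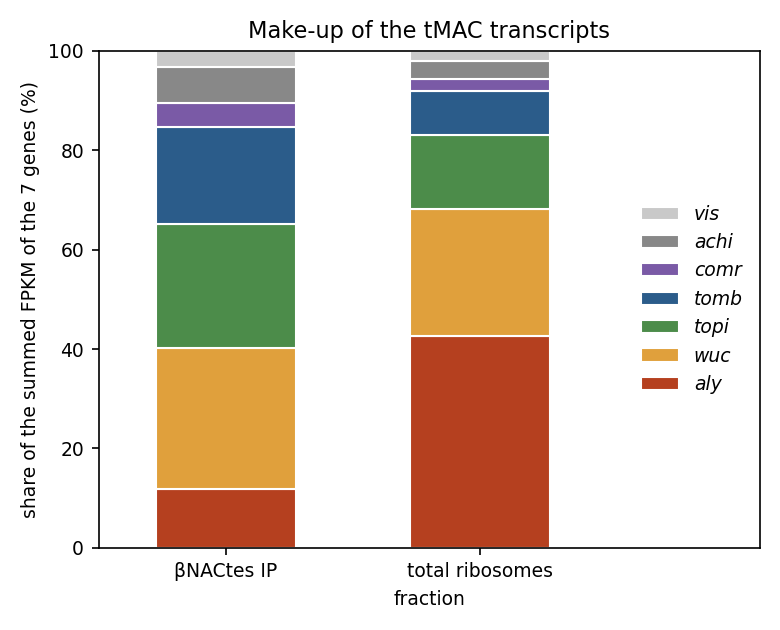
Share of each gene in the summed FPKM of the 7 tMAC genes, in percent, for the βNACtes IP (left bar) and total ribosomes (right bar). The lowest segment, aly, is 11.8% in the βNACtes IP, against 42.7% in total ribosomes, and the segments of topi and tomb are larger in the βNACtes IP.

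By level, the order in the βNACtes IP was wuc, topi, tomb, aly, achi, comr and vis, from 41.5 to 4.83 FPKM. In total ribosomes it was aly, wuc, topi, tomb, achi, comr and vis, from 84.0 to 4.13 FPKM. Only the place of aly changed, from which those of wuc, topi and tomb follow. Without replicates it is unknown which neighbours in these orders differ beyond their spread. The highest member had 8.59 times the level of the lowest in the βNACtes IP and 20.3 times in total ribosomes. The median of the members was 17.3 FPKM in the βNACtes IP and 17.2 FPKM in total ribosomes, compared with a median over all genes of 7.05 FPKM in the βNACtes IP and 4.32 FPKM in total ribosomes. Within the table aly was at percentile 65.2 of all levels in the βNACtes IP, against 89.6 in total ribosomes. For vis, the lowest member, the percentiles were 44.2 in the βNACtes IP, against 49.4 in total ribosomes.

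A ratio as low as that of aly was not rare in the table. Of the genes tested, 5.37% had a relative log2 ratio at or below it. Among 774 genes whose level in total ribosomes was within 0.5 log2 units of that of aly, 40 were at or below its ratio (5.17%), and their median was −0.61. The other members were between percentiles 29.1 (wuc) and 49.9 (tomb) of the relative log2 ratio of all genes tested. The distance of aly from the lowest of the other members was −2.0 on the log2 scale, whereas the other 6 spanned 1.00. The genes whose pair of levels was nearest to the median pair of the members, in log2(FPKM + 0.1) over the 2 fractions, were CG30349, Coop and CG10721, at distances of 0.011, 0.022 and 0.024. As 219 genes were within 0.5 of this point, such likeness is common.

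**Figure D3:**
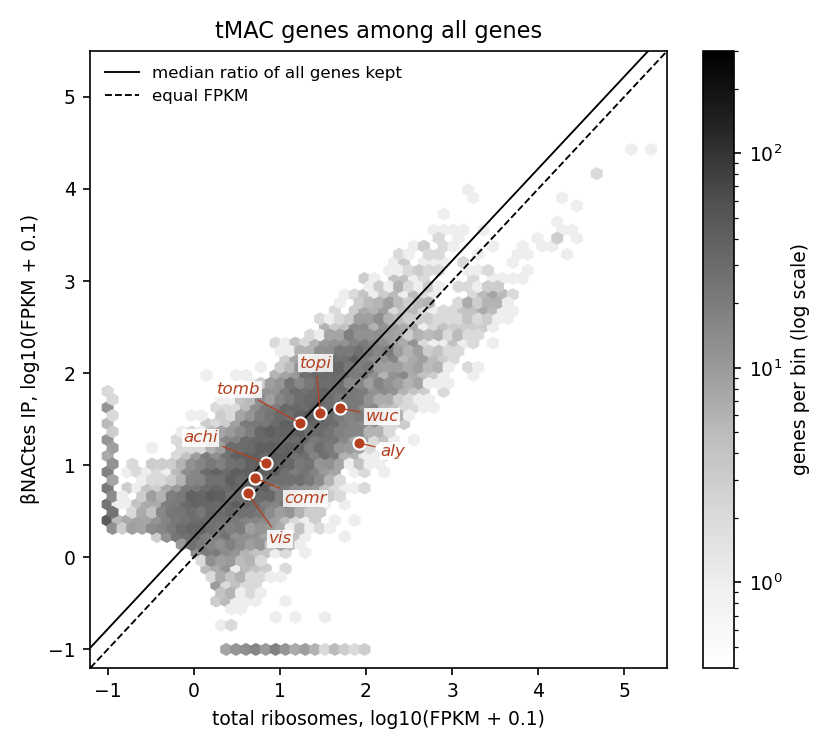
Level of each gene tested in the βNACtes IP (vertical) against total ribosomes (horizontal), as log10(FPKM + 0.1), with darker bins holding more genes and the 7 tMAC genes as labelled points. The solid line is the median ratio of all genes (0.73 on the log2 scale) and the dashed line equal FPKM. Most tMAC genes are between or near the lines, and aly is well to the right of both.

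Across the table the relative log2 ratio was higher for longer genes, so the members were also set against genes of like exonic length. With genes split into 10 bins by length, the median relative log2 ratio was −0.50 in the bin of wuc and tomb (637 to 875 bp) and 0.28 in that of topi and achi (2472 to 3223 bp). Set against the median of its own bin, aly was at −2.97, topi at −0.71, wuc at −0.51, vis at −0.48, achi at −0.42, comr at −0.06 and tomb at 0.49. The value of aly, with 2267 exonic bp in the bin from 2007 to 2470 bp, hardly moved. The call for wuc was lost within its bin.

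**Figure D4:**
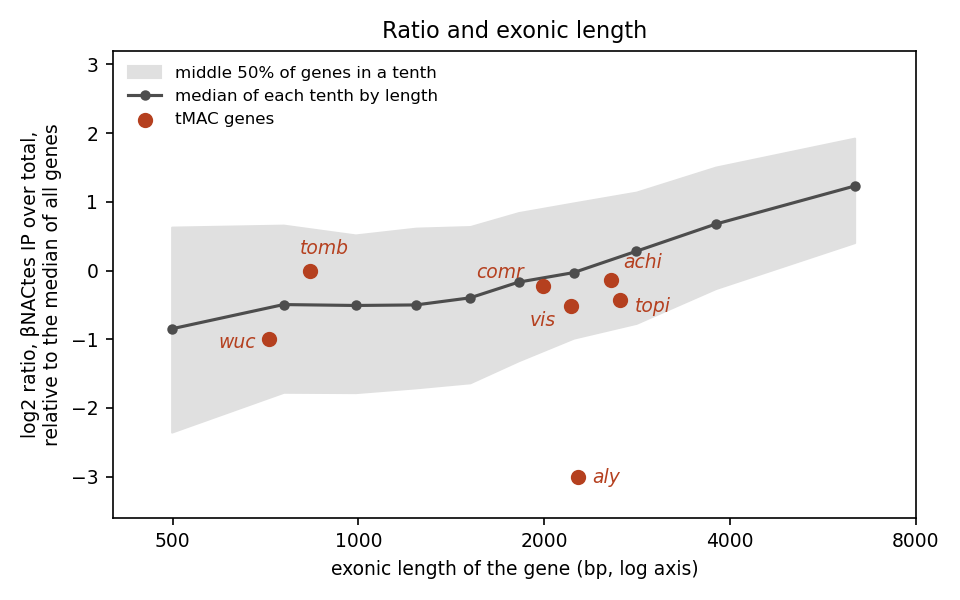
Relative log2 ratio, βNACtes IP over total ribosomes, against exonic length in bp on a log axis. Grey points are the medians of 10 bins of all genes tested by length, with the band covering the middle 50% of each bin. The tMAC genes are the red points, and aly at −3.0 is below the band of its bin while the other 6 are within theirs.

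Next, the members with a counterpart in the general MuvB complex were compared with it. For wuc and lin-52 the fractions were alike, as lin-52 had 14.3 FPKM in the βNACtes IP and 16.6 FPKM in total ribosomes. The level of wuc was 2.90 times that of lin-52 in the βNACtes IP and 3.01 times in total ribosomes, and the relative log2 ratios differed by −0.05. The DNA-binding mip120 had 1.44 FPKM in the βNACtes IP and 0.97 FPKM in total ribosomes. The level of tomb was 19.8 times that of mip120 in the βNACtes IP and 17.7 times in total ribosomes. The relative log2 ratios differed by 0.20, and by 0.39 with a pseudocount of 1 FPKM. Within length bins tomb was at 0.49 and mip120, which was near the minimum of 1 FPKM, at −0.88. This pair was thus alike only without bins, whereas wuc (−0.51) and lin-52 (−0.45) were alike within bins too. The counterpart of aly, mip130, had 2.77 FPKM in the βNACtes IP and was listed at 0 in total ribosomes, so no ratio is given. In the βNACtes IP aly had 6.24 times the level of mip130. In each of these ratios the testis paralog was the more abundant transcript.

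Of 10 general MuvB and dREAM genes, 9 were in the table and 7 passed the filter with values above 0 in both fractions. Of these, 1 was called higher and 0 lower, where 26.4% of all genes tested were higher and 29.2% lower. The median relative log2 ratio of the 7 genes was 0.42, against 0 for all genes tested. Values in parentheses below are relative log2 ratios. The shares over all genes include genes listed at 0 in 1 fraction. By that rule mip130, which passed the filter but was left out of the count, would also be higher. The gene called was Myb, a transcription factor of the cell cycle, with 28.2 FPKM in the βNACtes IP and 6.20 FPKM in total ribosomes (1.44). The subunit that tMAC shares with this complex, mip40, had 44.4 FPKM in the βNACtes IP and 20.0 FPKM in total ribosomes (0.42). The repressive factor E2f2 had 42.0 FPKM in the βNACtes IP and 13.3 FPKM in total ribosomes (0.92), and within its length bin it was past the threshold (1.09). Rbf2, a retinoblastoma family gene, was listed at 0 in the βNACtes IP and had 0.315 FPKM in total ribosomes. The other shared subunit, Caf1-55, was not analysed here.

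The testis TAFs are paralogs of TFIID subunits that act in spermatocytes beside tMAC and whose loss gives a like arrest. Of 5 such genes (can, mia, sa, nht and rye), 1 was called higher and 0 lower (all genes tested, 26.4% and 29.2%), with a median of −0.67. Within length bins this median was −0.16, and the value of rye, a TAF12 paralog, was 0.11 instead of −0.74. The gene called was mia, a TAF6 paralog, with 24.7 FPKM in the βNACtes IP and 4.06 FPKM in total ribosomes (1.85), and the lowest was nht, a TAF4 paralog, at −0.93. Of 9 other genes of meiotic arrest and spermatocyte transcription, 1 was called higher and 2 lower, with a median of −0.91. With 26.4% of all genes called higher and 29.2% lower, these counts are near or below the background. Within length bins Mi-2, a chromatin remodelling gene, was also lower (−2.08, against −0.85 without bins). The mRNA export gene Nxt1 had a value close to that of aly, with 8.34 FPKM in the βNACtes IP and 37.1 FPKM in total ribosomes (−2.87). Within length bins they were further apart, with Nxt1 at −2.02 and aly at −2.97. The other gene called lower was thoc5 of the THO complex (−1.23), and the chromatin remodelling gene E(bx) was called higher (2.39).

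Listed transcripts that need aly in spermatocytes were placed differently. They were chosen with earlier results of these data known, so their count does not describe all transcripts that need aly. Of 8 such genes 7 were called higher and 0 lower, with a median of 1.61, against 26.4% of all genes called higher. They included twe, the meiotic Cdc25 phosphatase, with 38.8 FPKM in the βNACtes IP and 9.54 FPKM in total ribosomes (1.28). Of the spermatid genes, the mitofusin fzo had 75.6 FPKM in the βNACtes IP and 10.4 FPKM in total ribosomes (2.11), and janB had 797.9 FPKM in the βNACtes IP and 95.3 FPKM in total ribosomes (2.33). The sperm tail gene Mst87F, at 0.04, was not called. Within length bins 5 of the 8 were past the threshold, with a median of 1.73. The share of all genes past the threshold within bins was not computed, so this count has no background beside it. The calls of the cyclin gene CycB (0.96 within its bin, against 1.24) and of the meiotic regulator bol (0.12, against 1.35) were lost.

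**Figure D5:**
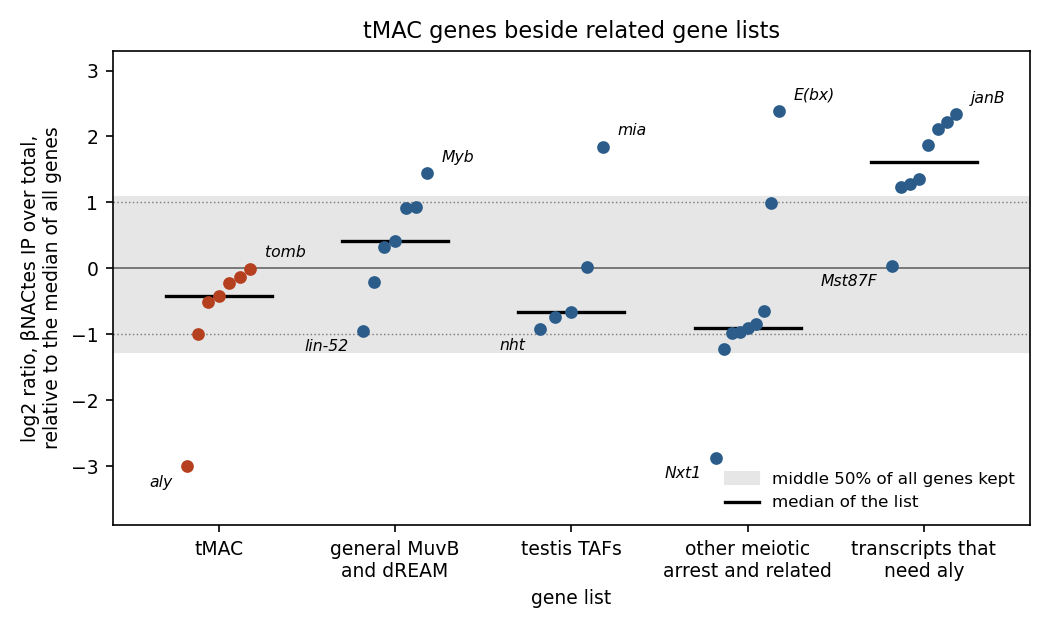
Relative log2 ratio, βNACtes IP over total ribosomes, of the genes of 5 lists with values above 0 in both fractions. Black bars are the list medians (−0.43 for tMAC, 1.61 for transcripts that need aly), the grey band is the middle 50% of all genes tested, dotted lines are the thresholds of −1 and 1, and the lowest and highest gene of each list are named. In the tMAC list aly is the only gene outside the band.

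The labelled tissue was checked by its markers. Of 11 germline and spermatocyte markers 10 were in the table and 0 of these were at 0 in either fraction. Their summed level was 1314 FPKM in the βNACtes IP and 398.2 FPKM in total ribosomes. The IP sum was mostly that of dj (637.8 FPKM) and bol (378.8 FPKM). Of the 10 markers 4 were called higher and 1 lower (all genes tested, 26.4% and 29.2%). The 4 called higher, bol, twe, dj and fzo, were already counted among the listed transcripts that need aly. The median relative log2 ratio of the 10 markers was 0.51, and 0.00 within length bins. Accessory gland genes were abundant in both fractions, with a sum over 5 genes of 21692 FPKM in the βNACtes IP and 84067 FPKM in total ribosomes. All 5 were called lower, against 29.2% of all genes tested. The paper describes the accessory gland as somatic and unstained for germline NAC-β. By these markers the libraries were not of testis cells alone. The sum over 6 markers of cyst and hub cells was 18.8 FPKM in the βNACtes IP and 8.58 FPKM in total ribosomes, where tj and wg were listed at 0. The sum over 6 muscle markers was 145.6 FPKM in the βNACtes IP and 128.8 FPKM in total ribosomes. The median relative log2 ratio was 0.72 for the muscle markers and 0.47 for the 4 cyst and hub markers tested. Within length bins these medians were 0.19 and −0.13. The part of these cells in the values of the tMAC genes was not tested.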

How the data were processed

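The deposited table has 12847 rows with 12782 distinct gene identifiers and 1 value for each fraction. Each row was counted as a gene. A further column with a log2 fold between them is the authors' own comparison and was not used. The table names no unit. The deposited values were read as FPKM, averaged by the authors over the 3 IP libraries and the 2 libraries of total ribosomes. Of the values of total ribosomes, 100% could be means of 2 values given to 2 decimals. The IP column was not checked in this way, and its values for the 7 members have at most 2 decimals. That it is a mean of 3 libraries is therefore an assumption. When the values of each column were multiplied by exonic length, the IP column summed to 99.9% of the other, against 55.9% for the plain sums. The submitters' processing notes name TopHat2 2.0.14, Bowtie, Bowtie2, Cufflinks 2.2.1 and the build dm3. Annotation and treatment of shared reads are not given in the sources used here. Positions and exonic lengths are from the Ensembl release 115 annotation of BDGP6, matched by FBgn identifier (98.9% of rows). They are not in the dm3 build.

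Ratios used a pseudocount of 0.1 FPKM, a minimum mean of 1 FPKM and centring on the median. With 1 value per group no p-value was computed, and the count test, leaving out of libraries and replicate block foreseen for single libraries were not run. The members and lists were chosen with earlier results of these data known. Named were the 7 members, genes of 4 related lists fixed by symbol, the 3 genes nearest to the median pair of members, and tissue markers. Cap-D3 was named after the overlap was seen. The genes kmg, dany, tbrd-1, tbrd-2 and rye were matched through identifiers. The alternatives were other scalings, pseudocounts, filters, length bins, the sum of achi and vis, and leaving out aly. Scripts were tested on simulated data. No sequence is shown. Computations were done in Python 3.11.15 (numpy 2.4.6, matplotlib 3.10.9, pandas 2.3.3).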

Additional observations from a re-analysis of the deposited data

How the results depend on the processing

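The median relative log2 ratio of the tMAC genes, −0.43, was 0.30 with the values as deposited and 1.14 in TPM, since neither is centred. The count of 2 genes past the threshold, both lower, was 1 with the values as deposited, with upper-quartile scaling, with a pseudocount of 1 FPKM, with a minimum mean of 10 FPKM (4 genes left) and within length bins, and in each of these settings it was aly. For the other pseudocount, the other minimum mean and the length bins, the share of all genes called was not computed. In those settings the count has no background beside it. The count was 6 in TPM, with 5 higher and aly lower. Without aly, a choice made after seeing the data, the count was 1. The log2 ratio of wuc was above 0 in TPM (0.56), which is not centred and where the median of all genes tested was 1.55. Of 59 single-gene values under alternatives, 45 moved by less than 1.5 times. With achi and vis summed, 2 of 6 genes kept their place in both orders of level, against 3 of 7. Depth is unknown, so the precision of low members such as vis and comr cannot be given. No paired analysis was possible because the table gives 1 value per group, and for the same reason no library could be left out.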

Other observations

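Markers of early germ cells differed in level. The RNA helicase gene vas had 3.32 FPKM in the βNACtes IP and 2.52 FPKM in total ribosomes (relative log2 ratio −0.34), and the differentiation gene bam had 1.26 FPKM in the βNACtes IP and 0.895 FPKM in total ribosomes (−0.28), whereas its partner gene bgcn had 39.2 FPKM in the βNACtes IP and 11.8 FPKM in total ribosomes (0.99, and 0.32 within its length bin). The spermatocyte RNA-binding gene Rbp4 was, like aly, lower in the βNACtes IP, with 54.7 FPKM against 112.6 FPKM in total ribosomes (−1.77). Within its length bin this value was −1.37. The meiotic regulator bol had 378.8 FPKM in the βNACtes IP and 89.7 FPKM in total ribosomes (1.35), but within its length bin it was at 0.12.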
